A study of Mus with 50 samples.

Results

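The nuclear genes of respiratory complexes II to V were followed in 50 livers, each from a separate female mouse and read on its own array. Members were all genes annotated as Sdha, Sdhb, Sdhc, Sdhd, Cyc1 or Cycs, and all genes whose symbol begins with Uqcr, Cox4, Cox5, Cox6, Cox7, Cox8 or Atp5, each read from the probe set of that gene alone with the highest median. This gave 49 of 22180 named genes: 4 of complex II, 9 of complex III, the carrier Cycs, 17 of complex IV and 18 of complex V. Of these, 2 are annotated as pseudogenes (Atp5c1-ps and Uqcrh-ps1). Cox6c and Uqcr10 sit only on probe sets shared with another gene and were not analysed here.

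Every mouse was a female of a C57xFVB backcross with breast cancer and carried MMTV-Neu, a proto-oncogene under a mouse mammary tumour virus promoter that is active mainly in mammary epithelium. Per the series design, animals were picked for very high or very low grades of ageing, but no label ties an animal to its grade, and none gives an age. All 50 livers therefore formed 1 group with both kinds in it, and grades were not compared.

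Complex II oxidises succinate and passes electrons to ubiquinone, complex III hands them to cytochrome c, complex IV reduces oxygen with them, and complex V uses the resulting proton gradient to make ATP. Complex II is coded in the nucleus alone, whereas the others also contain subunits coded in mitochondrial DNA, so that their nuclear genes supply only part of each enzyme. In liver these complexes support the energy demand of glucose, urea and lipid metabolism, and leakage of electrons from the chain is a source of superoxide. Several complex IV subunits exist as a widespread and a muscle type isoform.

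Values are log2 signals made by robust multi-array averaging (RMA), which equalises the distribution of signal between arrays. A signal depends on its probes, so levels of different genes are not ranked and only differences between livers are read. Array medians lay between 3.27 and 3.34. Hepatocyte markers were detected: Alb, which encodes albumin and reads at the top of the signal range, ran from 13.20 to 13.54, and all 12 markers had medians of at least 9.57. Their mean level was 11.62 to 12.10 in 46 livers, but 10.53 in animal 64 and 11.25 in animal 235. Animals 64, 84, 87 and 235 stood apart from the other livers over the whole array in an earlier analysis of these data, and results that rest on them are given with and without them. That analysis also found steps along the animal number in the titles, which split the mice into stretches of 8 (animals 7 to 79), 13 (84 to 128), 16 (137 to 235) and 13 (253 to 301). What the number records is not given in the labels.

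Most members were detected and varied little. A gene was fitted when its median reached 3.61, the median over all named genes. This held for 39 of the 49 members: 4 of complex II, 8 of complex III, Cycs, 10 of complex IV and 16 of complex V. The SD over livers of these 39 had a median of 0.24, against 0.28 over the 11090 genes at or above that level, and 29 of the 39 lay below that median. The 10 others were the 2 pseudogenes, Cox4i2, Cox6a2, Cox6b2, Cox7b2, Cox7c, Cox8b, Cox8c and Atp5j2. Cox7c and Atp5j2 encode subunits that all tissues use, and nothing is read from their low signal.

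**Figure D1:**
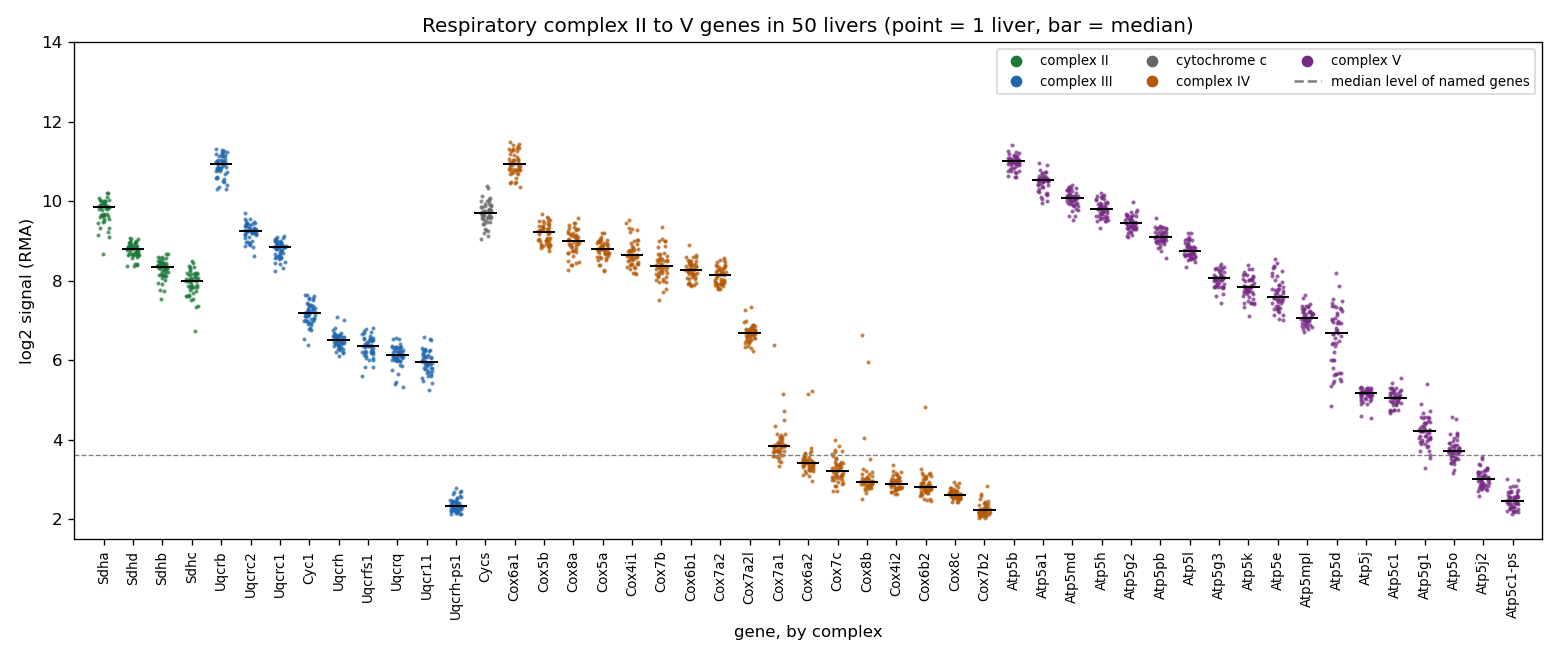
Log2 signal (y axis) of each of the 49 members (x axis, by complex and then by median) in each of 50 livers; points are livers, bars are medians and the dashed line is the median level of named genes, 3.61. Most members form a narrow band, Atp5d spreads over more than 3 log2 units, and Cox6a2, Cox7a1 and Cox8b show single livers far above the rest.

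Of the 4 complex II genes, 3 were lowest in the same liver. Sdha, the flavoprotein that oxidises succinate, ran from 8.66 through a median of 9.85 to 10.22. Sdhb, the iron-sulphur subunit, ran from 7.55 through 8.33 to 8.68. Sdhc, a membrane anchor, ran from 6.73 through 7.99 to 8.50. These 3 genes were lowest in animal 64. That animal lay below every liver that does not stand apart for 24.5% of all genes, and for 15.4% of the fitted members. Sdhd, the other anchor, was narrower, from 8.37 through 8.79 to 9.07, and was lowest in animal 161.

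Of the 8 complex III genes, 5 were lowest in animal 235. Cyc1, the cytochrome that passes electrons on to cytochrome c, ran from 6.37 through 7.19 to 7.64. Uqcrfs1, the Rieske iron-sulphur protein, ran from 5.59 through 6.36 to 6.81. Uqcrc1 and Uqcrc2, the large core subunits, had SDs of 0.21 each. The 5 were Cyc1, Uqcrfs1, Uqcrc2, Uqcrq and Uqcr11. Animal 235 lay below every liver that does not stand apart for 16.3% of all genes, and for 38.5% of the fitted members. Cycs, which encodes cytochrome c itself, ran from 9.05 through 9.71 to 10.38.

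Complex IV genes of the widespread isoforms had SDs from 0.21 to 0.36. Cox4i1, a regulatory subunit, ran from 8.17 through 8.65 to 9.52, and its high values fell in animals of low number, as given below. Cox5a, next to it in the enzyme, ran from 8.24 through 8.80 to 9.21. Cox7b had the widest spread of these genes, from 7.52 through 8.36 to 9.34. Cox7a2l, which encodes a relative of Cox7a that joins complexes III and IV into supercomplexes, ran from 6.22 through 6.69 to 7.35.

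Complex V held both the steadiest and the most variable members. Atp5j, coupling factor 6, had the smallest SD of the 39, at 0.16. Atp5b, the catalytic beta subunit, had an SD of 0.17 and ran from 10.60 through 11.01 to 11.40. Atp5a1, the alpha subunit, ran from 9.95 through 10.53 to 10.96. Atp5d, the delta subunit, had an SD of 0.75 and ran from 4.85 through 6.68 to 8.19. Its other probe set had an SD of 0.28 and r = 0.717 with the one used, so the size of the Atp5d spread differs between probe sets.

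For 6 of the 39 members the probe set number did not lie among those of genes on the member's own chromosome. The Atp5g2 probe set was numbered among genes of chromosome 17 (gene on 15), Atp5h among 15 (gene on 11), Cox5b among 13 (gene on 1) and Cycs among 5 (gene on 6). The probe sets of Cox7b and Uqcrb could not be placed. For Atp5g2 the other probe set followed the one used with r = 0.953, whereas for Cox5b it had a median of 3.12 and r = −0.131.

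On average, members moved together across the 4 complexes. Pooled over complexes, their mean correlation was no higher within a complex than between complexes. Over all 50 livers complexes II and III had higher means within, for complex III only slightly above its mean with complex II. Over all 741 pairs of the 39 members the mean Pearson r over 50 livers was 0.246, against 0.016 over all pairs of the 11090 genes. Of the 741 member pairs 155 had a negative r, the lowest −0.641. The mean was 0.236 for the 199 pairs within a complex, of which complex V gave 120, and 0.250 for the 504 pairs between complexes. Complex II had the highest mean within, at 0.487 over 6 pairs, against 0.368 with complex III, 0.167 with IV and 0.301 with V. Complex III had 0.381 within, against 0.368 with II, 0.265 with IV and 0.292 with V. With the mean of each stretch removed, complex III had 0.467 within and 0.518 with II. Complex IV had 0.214 and complex V 0.197 within, and 0.185 with each other. Without the 4 animals that stand apart the mean within complex II was 0.342, no longer above the 0.343 within complex III. The mean over all member pairs was then 0.219. These r are descriptions, since all pairs share the same 50 arrays.

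Closest partners lay in the own complex about as often as its size gives. Of the 39 members, 10 (25.6%) had their highest r with a member of their own complex, which holds on average 26.9% of a member's possible partners. Uqcr11, a small subunit of complex III, went with Atp5e, the epsilon subunit of complex V, at r = 0.819. Cycs went with Uqcrh, the hinge protein that binds cytochrome c1, at r = 0.758. Sdha went with Atp5a1 at r = 0.809, and Sdhb with Atp5md, a small membrane subunit of complex V, at r = 0.771.

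Within complex V, Atp5a1 and Atp5b rose together, while Atp5l and Atp5e did not pass the test with Atp5b. Atp5a1 and Atp5b, which form the catalytic head, were the closest pair of all, with r = 0.897 (permutation p = 1e-05, the smallest possible) and rho = 0.862 (permutation p = 1e-05) over 50 livers. Without the 2 livers farthest on Atp5b r was 0.867, and within the 4 stretches of animal numbers it was 0.716, 0.811, 0.939 and 0.876 (limma adjusted p = 3.8e-11 over all genes). Atp5l, subunit g of the membrane part, did not rise with Atp5b, with r = −0.227 (permutation p = 0.114) and rho = −0.170 (permutation p = 0.236). Its r without the 2 livers was −0.162, and within stretches it was 0.382, −0.115, 0.237 and 0.461 (limma adjusted p = 0.36). Atp5e had r = −0.245 with Atp5b (permutation p = 0.0873) and rho = 0.023 (permutation p = 0.873). Its r was −0.131 without the 2 livers and −0.443, 0.088, 0.445 and 0.564 within stretches (limma adjusted p = 0.28).

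Members of all complexes could be ordered along common axes. The first principal component of the 39 standardised members held 33.6% of their variance and was positive for 36. The second held 16.5% and set Atp5a1, Atp5b, Sdha, Atp5d, Uqcrc1 and Uqcrc2 (correlations with it of 0.77, 0.74, 0.73, 0.70, 0.61 and 0.59) against Cox4i1, Atp5e, Cox7b, Atp5l and Uqcr11 (−0.64, −0.62, −0.53, −0.53 and −0.50). The first set holds subunits of the complex V head, the core subunits of complex III and the flavoprotein of complex II. The second component had r = 0.566 with the animal number, and the first −0.057. Over all livers Atp5a1 had r of −0.31, −0.32, −0.18, −0.24 and −0.27 with Cox4i1, Atp5e, Cox7b, Atp5l and Uqcr11. With the mean of each stretch removed, these were 0.53, 0.26, 0.37, 0.33 and 0.23. For Atp5a1 the opposition was thus not present within stretches. Its r with Atp5d, of the first set, was 0.31 over all livers and −0.10 with stretch means removed. The sets were read from these values and carry no test.

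**Figure D2:**
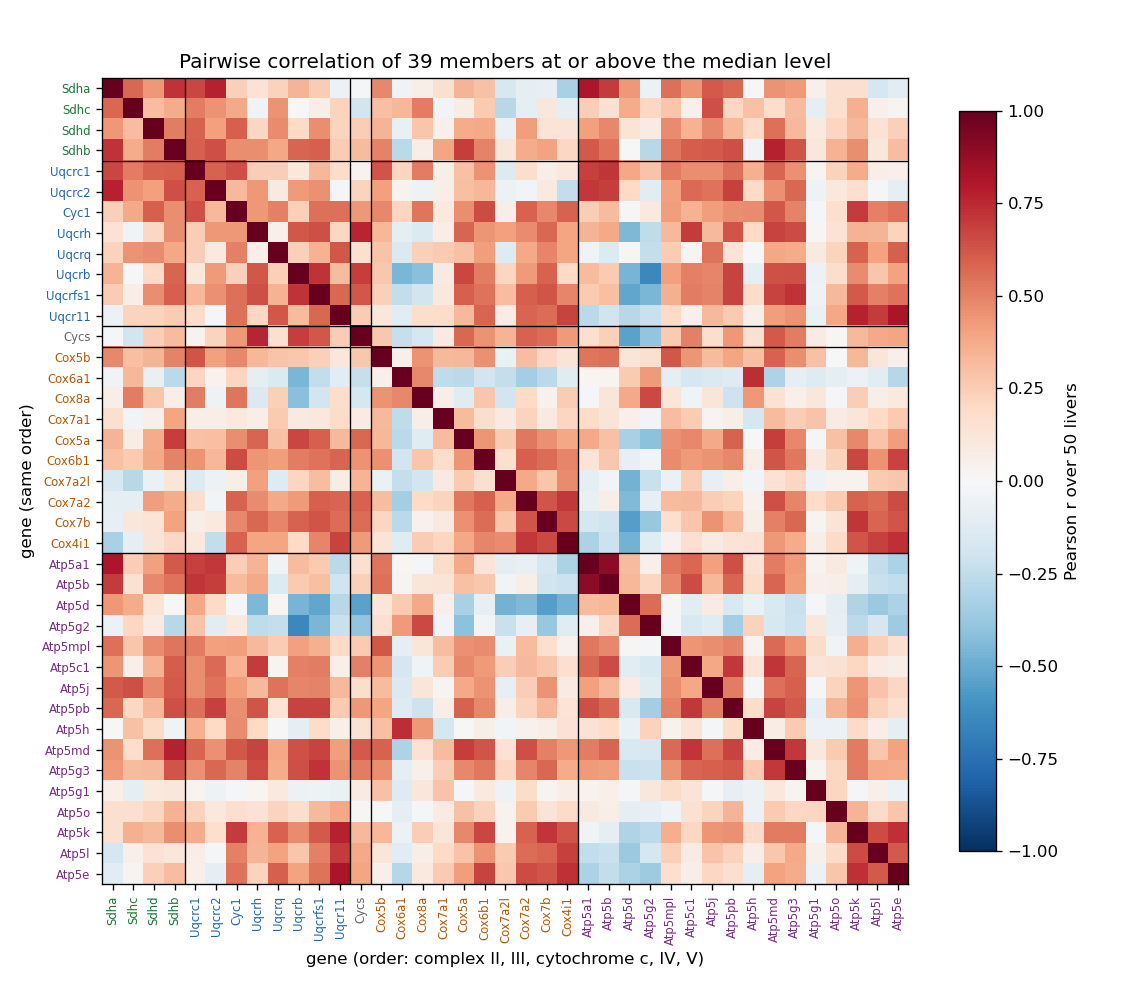
Pairwise Pearson r over 50 livers (colour, from −1 to 1) of the 39 members at or above the median level, ordered on both axes by complex (II, III, cytochrome c, IV, V; black lines) and within it by the second component. Red blocks cross the lines between complexes, and Atp5a1 and Atp5b at the head of complex V are red with Sdha, Uqcrc1 and Uqcrc2 and pale or blue with Atp5k, Atp5l and Atp5e.

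Members were also fitted on 1 reference subunit per complex. With Sdha, 17 of 38 other members rose at a limma adjusted p under 0.05 and Cox4i1 fell, while 21.7% of all genes rose and 18.2% fell. The count of 17 was 11 without the 4 animals that stand apart (13.5% of all genes) and 27 with stretches as a block (23.5%). With that block 0 members fell, against 21.2% of all genes. With Uqcrc1 19 of 38 rose, against 10.6% of all genes that rose and 7.85% that fell. With Cox5a 13 of 38 rose, against 1.26% of all genes that rose and 0.361% that fell, and 8 with stretches as a block (0.514% of all genes). With Atp5b 12 of 38 rose, against 6.84% of all genes that rose and 2.03% that fell, and 20 with stretches as a block (7.02% of all genes). The 12 included Sdha, Sdhb and Sdhd, and of complex IV Cox5b alone.

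The named genes outside the complexes that were closest to each reference differed. Closest to Sdha were Aldh9a1, Acad8, Pcca, Mcee and Aldh2, enzymes of aldehyde, branched-chain and propionate breakdown, with r from 0.855 to 0.919 over 50 livers. Closest to Uqcrc1 were the complex I genes Ndufa10, Ndufv1 and Ndufa9, with Mpst and Sod1, at r from 0.707 to 0.814. Cox5a had Ndufv2, Hint1, Fuca1, Vti1b and Clic5, at r from 0.618 to 0.728. Atp5b had Chchd3, a cristae protein, Vdac3, an outer membrane channel, Hspa9 and Afg3l2, a mitochondrial chaperone and protease, and Atl3, at r from 0.738 to 0.811.

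Most members rose with complex I, the other large enzyme of the chain, whose genes are no members. Against a score of 33 Nduf genes (the mean of their values standardised over livers), 31 of 39 members rose and none fell at a limma adjusted p under 0.05, while 17.8% of all 11090 genes rose and 18.2% fell. The members' median slope was 0.12 log2 per SD of the score, against −0.002 over all genes. All 4 complex II and all 8 complex III members rose, with Cycs, 6 of 10 of complex IV and 12 of 16 of complex V. Without the 4 animals that stand apart 28 rose, against 10.5% of all genes that rose and 8.76% that fell.

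Members of all 4 complexes had close relations of this kind. Cyc1 rose by 0.21 ± 0.025 (SE) log2 per SD of the complex I score, with r = 0.792 (permutation p = 1e-05) and rho = 0.700 (permutation p = 1e-05). Without animals 179 and 235 r was 0.717, and within stretches it was 0.674, 0.836, 0.934 and 0.717 (limma adjusted p = 3.4e-08). Atp5md had r = 0.784 and rho = 0.733 (permutation p = 1e-05 for each), r = 0.706 without those 2 animals and 0.821, 0.659, 0.878 and 0.474 within stretches (limma adjusted p = 1.7e-07). Cox6b1, a subunit on the cytochrome c side of complex IV, had r = 0.776 and rho = 0.762 (permutation p = 1e-05 for each) and 0.753 without them. Within stretches its r was 0.178, 0.901, 0.835 and 0.821 (limma adjusted p = 1.3e-07), with its lowest value among the 8 animals of the first stretch. Sdhb had r = 0.765 and rho = 0.716 (permutation p = 1e-05 for each), 0.698 without them and 0.878, 0.673, 0.896 and 0.567 within stretches (limma adjusted p = 1.7e-07).

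The 8 members that did not pass were Atp5d, Atp5g1, Atp5g2, Atp5h, Cox6a1, Cox7a1, Cox7a2l and Cox8a. Their r with the complex I score ran from −0.132 for Atp5g2 to 0.283 for Cox8a. Some of them went with each other: Atp5h and Cox6a1 had r = 0.738, Atp5g2 and Cox8a 0.659, and Atp5d and Atp5g2 0.558. Atp5g2, which encodes the ring subunit c, had its lowest r with Uqcrb, at −0.641. The Atp5g2 and Atp5h probe sets are among those numbered away from their gene.

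**Figure D3:**
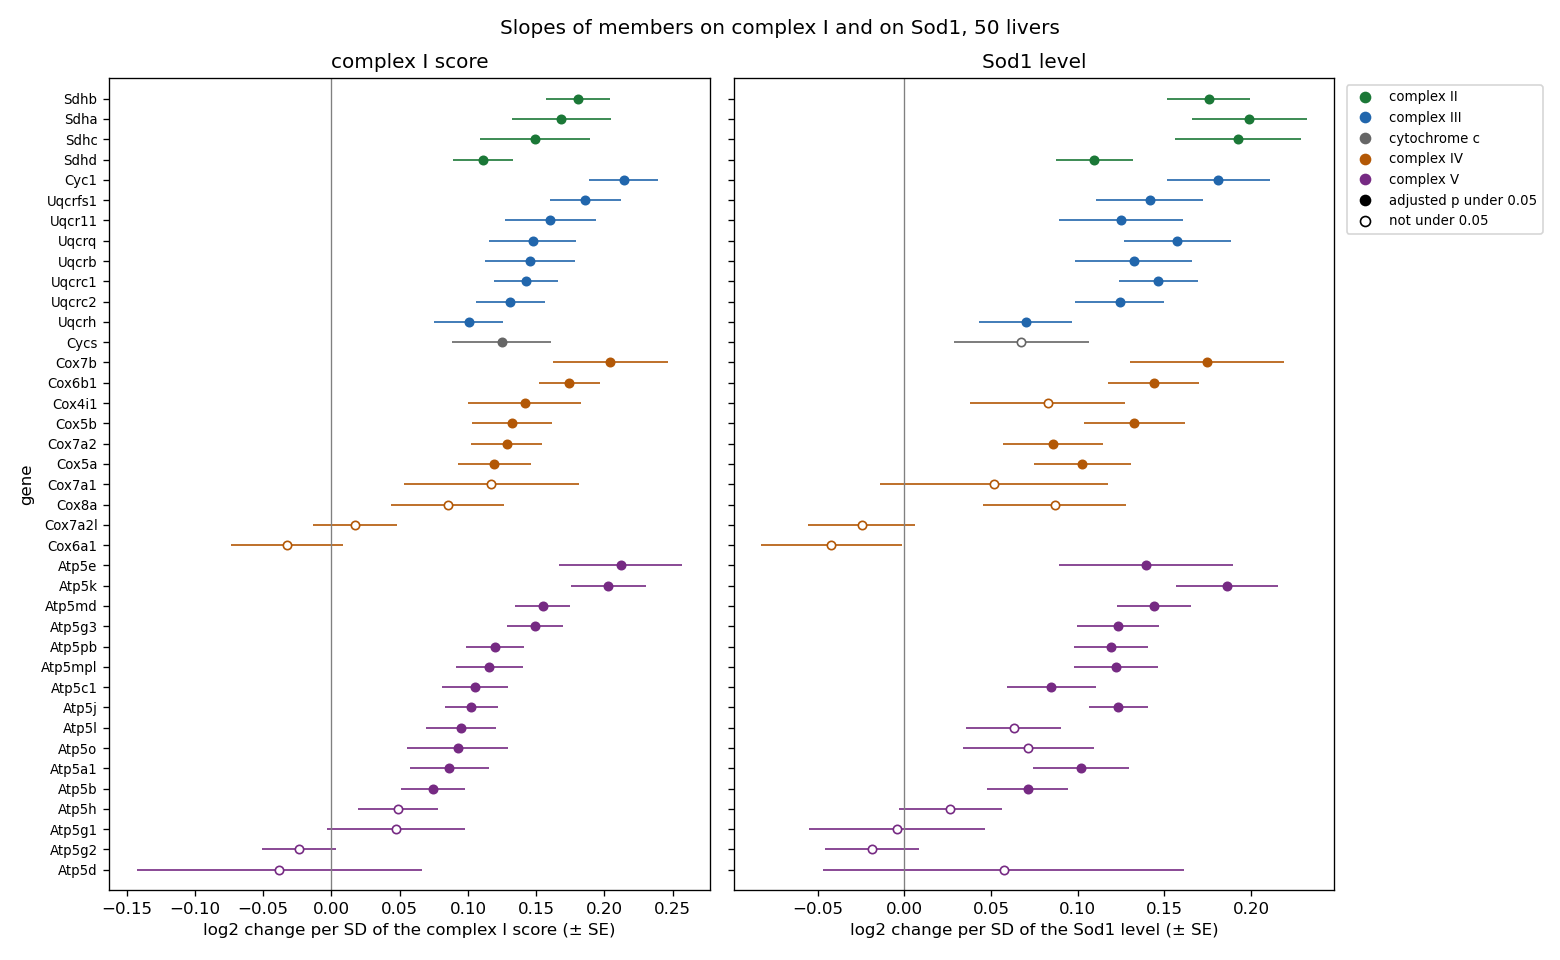
Slope of each member (log2 change per SD, x axis, ± SE) on the complex I score (left) and on the Sod1 level (right) over 50 livers, genes on the y axis by complex; filled points have a limma adjusted p under 0.05. On complex I 31 of 39 points are filled, all to the right of 0, and on Sod1 27 of 39.

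Members rose more often with mitochondrial than with cytosolic ribosomal genes, a difference that was not tested. With a score of 71 mitochondrial ribosomal protein genes 20 of 39 members rose and none fell, against 12.1% of all genes that rose and 10.3% that fell. Cyc1 led again, with r = 0.772 (permutation p = 1e-05), rho = 0.714 (permutation p = 1e-05), r = 0.687 without animals 87 and 235, and 0.717, 0.697, 0.872 and 0.691 within stretches (limma adjusted p = 6.5e-07). With a score of 58 cytosolic ribosomal protein genes 2 members rose (Cox4i1 and Cox7a2l) and 7 fell, against 25.5% and 23.2% of all genes. The 7 were Sdha, Sdhb, Sdhc, Uqcrc2, Uqcrq, Atp5d and Atp5j. Without the 4 animals 2 of 39 fell (5.13%), near the 5.63% of all genes. Sdhc had r = −0.696 with it (permutation p = 1e-05) and rho = −0.469 (permutation p = 0.0007). Its r was −0.488 without animals 64 and 84, and −0.924, −0.797, −0.548 and −0.158 within stretches (limma adjusted p = 2e-07), but the adjusted p was 0.19 without the 4 animals. With the cytosolic score as a covariate 29 of 39 members rose with complex I, against 12.7% of all genes that rose and 12.5% that fell. Without the 4 animals as well, 28 rose, against 10.6% that rose and 8.74% that fell.

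Other genes of the pathway followed complex I in part. Of 30 assembly factors of complexes II to V that were fitted, 16 rose with the score and 1 fell, beside 17.8% and 18.2% of all genes. Taco1, a translational activator of a mitochondrially coded complex IV subunit, Cox20, Tmem70, an ATP synthase assembly factor, and Cox14 rose by 0.17, 0.15, 0.13 and 0.12 log2 per SD. Atpif1, the inhibitor that blocks ATP hydrolysis by complex V, fell by 0.21 (limma adjusted p = 0.0123). Of 13 citric acid cycle genes 7 rose, led by Sucla2 at 0.20, Dld at 0.18 and Suclg1 at 0.20; Cs, citrate synthase, had a slope of 0.05 (limma adjusted p = 0.33) and Idh3a −0.07 (limma adjusted p = 0.46). The score of all Nduf genes is itself part of the chain, so these counts describe covariation and not control.

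Among 13 regulators fitted, 5 rose and 1 fell with the complex I score, beside the same 17.8% and 18.2% of all genes. Tfb2m and Tfam, which serve transcription of mitochondrial DNA, rose by 0.15 and 0.18 log2 per SD, and Gabpa, a nuclear activator of respiratory genes, by 0.11. Ppara, the receptor for fatty acids, rose by 0.30, and Pprc1, a coactivator, fell by 0.19 (limma adjusted p = 0.0016). Esrra and Nrf1, which bind promoters of respiratory genes, had slopes of 0.05 and −0.04 (limma adjusted p = 0.23 and 0.36). Fitted the other way round, no member followed the Esrra level, where 0% of all genes passed in either direction; at an unadjusted limma p under 0.05, 5 members rose and 0 fell. Ppargc1a, a coactivator of mitochondrial biogenesis, ran from 3.97 to 7.94; 5 members rose with it (Sdha, Sdhb, Uqcrc2, Atp5g3 and Atp5j), against 10.8% of all genes that rose and 15.6% that fell. Without the 4 animals none did by the adjusted p, and 1 by an unadjusted limma p under 0.05. ND1, a mitochondrially coded complex I gene with an SD of 0.07, was followed by no member (0% of all genes, and 4 members by the unadjusted p).

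Since the series title ties the mice to oxidative stress, members were fitted on single antioxidant enzymes. They rose most often with Sod1, the superoxide dismutase of the cytosol, which ran from 10.41 through 11.39 to 11.72. With it 27 of 39 members rose and none fell, against 21% of all genes that rose and 23.3% that fell. All complex II and complex III members were among them, with 5 of 10 of complex IV and 10 of 16 of complex V. With those 4 animals left out 24 rose, against 8.93% of all genes.

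Atp5j was the member closest to Sod1, with r = 0.787 (permutation p = 1e-05) and rho = 0.614 (permutation p = 1e-05). Its r was 0.619 without animals 64 and 235 and 0.896, 0.609, 0.859 and 0.592 within stretches (limma adjusted p = 9.9e-08). Sdhb had r = 0.744 and rho = 0.622 with Sod1 (permutation p = 1e-05 for each) and r = 0.648 without those 2 animals. Within stretches its r was 0.974, 0.539, 0.809 and 0.120 (limma adjusted p = 1.2e-07), with its lowest value in animals 253 to 301.

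The other enzymes were followed by fewer members. Of these, 12 of 13 for Sod2, 11 of 13 for Cat, 5 of 7 for Gpx1 and 6 of 6 for Prdx3 also rose with Sod1. Since 69.2% of all fitted members rose with Sod1, a large overlap is given by that share alone, and the Gpx1 overlap lies near it. Whether any overlap exceeds this share was not tested, and no overlap was computed over all genes. With Sod2, the mitochondrial superoxide dismutase, 13 rose and Atp5g2 fell, against 14.1% and 9.09% of all genes. Uqcrfs1 led with r = 0.615 and rho = 0.616 (permutation p = 1e-05 for each), r = 0.684 without animals 179 and 235, and 0.678, 0.677, 0.548 and 0.509 within stretches (limma adjusted p = 0.00022). With Cat, the peroxisomal catalase, 13 rose and Cox7a2l fell, against 23.7% and 26.5%. Sdhc led with r = 0.767 and rho = 0.649 (permutation p = 1e-05 for each), r = 0.618 without animals 64 and 235, and 0.937, 0.736, 0.768 and 0.613 within stretches (limma adjusted p = 2e-09). With the 4 animals left out 5 members rose with Sod2 and 7 with Cat, against 8.51% and 10.9% of all genes.

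By count, fewest members followed Gpx1 and Prdx3, with which fewer of all genes rose as well. The members' share was 17.9% for Gpx1 (2.83% of all genes) and 15.4% for Prdx3 (6.86%), against 33.3% for Cat (23.7%). With Gpx1, the main glutathione peroxidase, 7 members rose, against 2.83% of all genes that rose and 4.73% that fell: Atp5k, Atp5e, Uqcr11, Atp5l, Cox6b1, Cyc1 and Cox4i1. Atp5k had r = 0.608 (permutation p = 1e-05), rho = 0.593 (permutation p = 4e-05), r = 0.580 without animals 84 and 257, and 0.123, 0.668, 0.381 and 0.761 within stretches (limma adjusted p = 0.00092). With Prdx3, the peroxiredoxin of mitochondria, 6 rose, against 6.86% of all genes that rose and 0.866% that fell: Atp5b, Atp5a1, Atp5c1, Cox5b, Uqcrc1 and Uqcrc2, with slopes from 0.08 to 0.12 log2 per SD. Leaving out the 4 animals, the Gpx1 count was 3 of 39 (3.63% of all genes), and with stretches as a block it was 2 (4.11%), near the share of all genes. The Prdx3 count without the 4 animals was 7 of 39 (4.87% of all genes). That equals the count of 7 for Cat and lies above the 5 for Sod2 in the same livers. Whether a member's slopes on Gpx1 and Prdx3 differ was not tested.

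Members were also set against cell type markers. In bulk liver, fewer cells of a type and less RNA per cell cannot be told apart. With a score of 12 hepatocyte markers 10 of 39 members rose, against 22.7% of all genes that rose and 25.3% that fell, which is close to the members' 25.6%. The 10 included all 4 complex II genes and Atp5j. By ranks 6 rose (15.4%, against 4.27% of all genes), and without the 4 animals 7 did (17.9%, against 4.31%). With a score of 12 macrophage markers 17 fell and none rose, against 8.71% of all genes that fell and 12.2% that rose, and all 8 complex III members were among the 17. The mean level of these macrophage markers ran from 5.87 to 9.63 over livers. Atp5g3, another gene for the ring subunit c, had r = −0.675 (permutation p = 1e-05), rho = −0.569 (permutation p = 4e-05), r = −0.524 without animals 91 and 235, and −0.763, −0.872, −0.538 and −0.591 within stretches (limma adjusted p = 9.9e-06). Without the 4 animals 2 members fell, against 1.9% of all genes, and by ranks 7, against 1.69%.

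With a score of 12 stellate and fibroblast markers 5 members fell (Atp5g3, Atp5k, Atp5pb, Cyc1 and Uqcrfs1), against 4.56% of all genes that fell and 4.87% that rose. Without the 4 animals 2 did (1.24% of all genes), and 13 did with stretches as a block (7.42%). The complex I score had r = 0.336 with the hepatocyte, −0.622 with the macrophage and −0.503 with the stellate score. The part of cell composition in the covariation of members was not tested.

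The 4 livers that stand apart differed from each other in their respiratory genes. Animal 235 lay below all of the 46 other livers for 15 of the 39 members (38.5%, against 16.3% of all genes), among them Cyc1, Uqcrfs1, Uqcrc2, Sdhb and Atp5g3, and above them for none (17.8% of all genes). In the same liver 10 of 12 macrophage markers lay above the 46 others (mean level 9.63, against 5.87 to 7.89) and 7 of 12 hepatocyte markers below them. Animal 64 lay below them for 6 members (15.4%, against 24.5% of all genes): Sdha, Sdhb, Sdhc, Uqcrq, Atp5j and Cox7a1. In it 11 of 12 hepatocyte markers lay below the 46 others, and both measured erythroid markers above them. The part of these cell types in the members' values was not tested. Sdhc was 6.73 in animal 64, 7.61 in animal 84, 7.34 in animal 87 and 7.36 in animal 235, against 7.51 to 8.50 in the 46 others. Animal 87 lay below them for 6 (15.4%, against 7.17% of all genes), among them Cyc1, Cox8a and Atp5e. Animal 84 lay below for 2, Atp5k and Uqcrq (9.13% of all genes), and above for 5 (12.8%, against 17.2% of all genes): Atp5a1, Atp5b, Cox5a, Cox7a2l and Uqcrh. Its Atp5b value of 11.40 and its Atp5a1 value of 10.96 were the highest of all livers.

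A few members went with the animal number. Over all 50 livers Atp5d, Sdha, Atp5b and Cox5b rose with it and Cox7b fell, while 3.29% of all genes rose and 6.01% fell. The Cox5b probe set is numbered away from its gene, and that of Cox7b could not be placed. Among the 33 members numbered at their own locus 3 rose and 0 fell, beside the same shares of all genes. With animals 64, 84, 87 and 235 left out 6 members rose and 1 fell, against 5% and 8.13% of all genes. Per SD of the number Atp5d rose by 0.47 ± 0.083 (SE) log2 (limma adjusted p = 0.00014). Its r was 0.620 and rho 0.628 (permutation p = 2e-05 for each), and r without animals 7 and 10 was 0.570. The relation did not keep its direction within stretches, where r was −0.065, 0.640, −0.835 and 0.391. The 8 animals 7 to 79 had Atp5d values of 4.85 to 5.68. Values reached 5.53 to 7.35 among animals 84 to 128, then 6.43 to 8.19 among 137 to 235, and 6.35 to 7.43 among 253 to 301. The first stretch did not overlap with the third or the fourth. The share of all genes without overlap between stretches was not computed.

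The first 8 animals also stood toward the edge for some other members, again without a share over all genes to set beside them. Cox4i1 was 9.26 ± 0.18 (SD, n = 8) in animals 7 to 79, against 8.53 ± 0.24 (n = 13), 8.52 ± 0.20 (n = 16) and 8.73 ± 0.13 (n = 13) in the later stretches. The first stretch overlapped with the fourth, whose highest value was 9.03, and with no other. Atp5a1 lay from 9.95 to 10.37 in the first stretch, below all values of animals 84 to 128, which began at 10.43. Sdha had medians of 9.33, 9.88, 9.84 and 9.87 along the stretches, with r = 0.454 (permutation p = 0.00083) and rho = 0.430 (permutation p = 0.00188) over all animals. Its r without animals 7 and 10 was 0.387, and within stretches it was −0.033, 0.234, 0.088 and 0.407 (limma adjusted p = 0.018). Atp5b had r = 0.446 (permutation p = 0.00106), rho = 0.467 (permutation p = 0.00083), r = 0.357 without those animals and 0.255, −0.295, 0.271 and 0.515 within stretches (limma adjusted p = 0.036).

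Cox7b ran the opposite way, with means of 8.90 ± 0.37, 8.43 ± 0.16, 8.11 ± 0.28 and 8.39 ± 0.20 (SD). It had r = −0.449 (permutation p = 0.00106) and rho = −0.400 (permutation p = 0.00409), and leaving out animals 7 and 10 gave r = −0.374. Within stretches r was −0.050, −0.798, −0.023 and −0.302 (limma adjusted p = 0.018). The Cox7b probe set could not be placed, and the gene's other probe set had a median of 3.08 and r = 0.429 with it. The stretches were found in these same arrays, so their differences carry no test. The relations of Atp5d, Sdha and Atp5b with the number did not keep their direction within every stretch. That of Cox7b stayed negative, but its r was only −0.050 in animals 7 to 79 and −0.023 in animals 137 to 235.

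**Figure D4:**
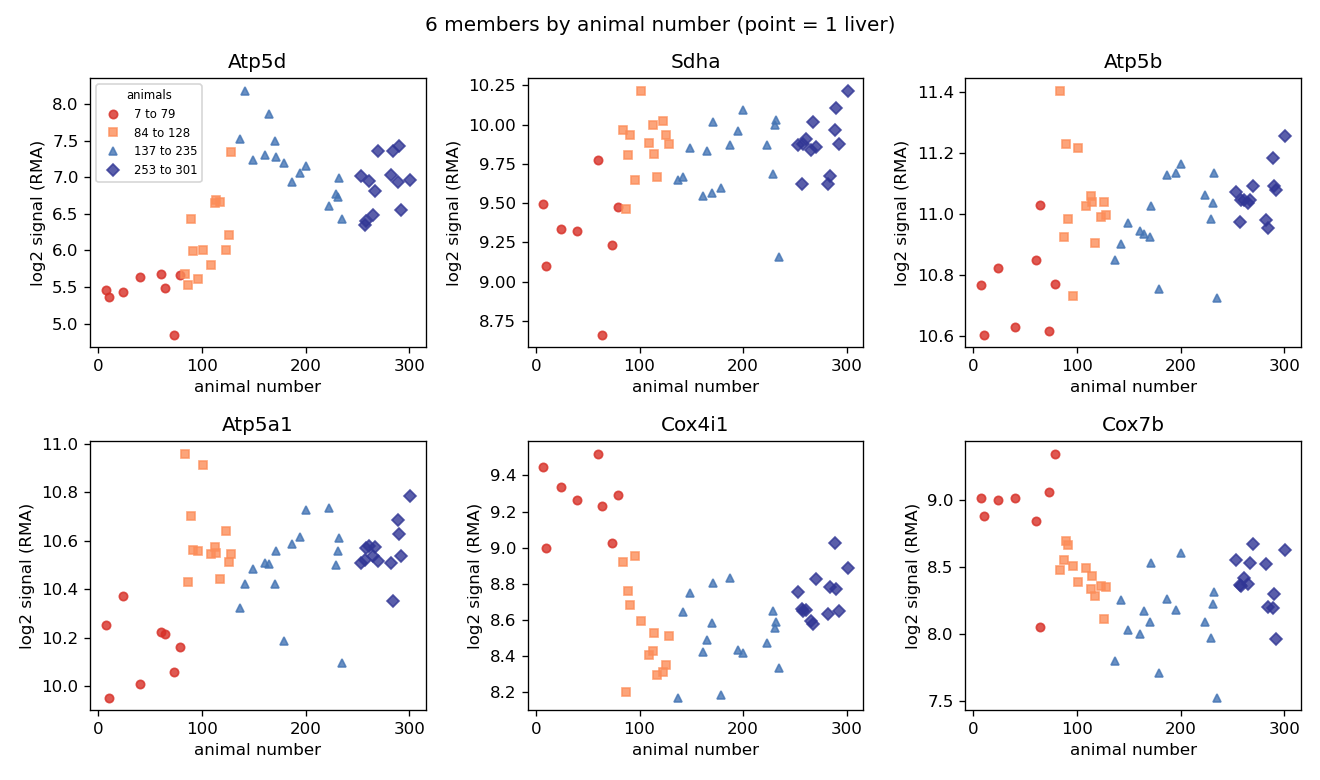
Log2 signal (y axis) of 6 members by animal number (x axis), 1 point per liver, with symbols for the 4 stretches. Animals 7 to 79 lie toward the low end for Atp5d, Sdha, Atp5b and Atp5a1 and high for Cox4i1, and mostly high for Cox7b, where 1 of them reads 8.05.

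Muscle type isoforms of complex IV were high in 2 livers. Cox6a2, Cox7a1 and Cox8b replace Cox6a1, Cox7a2 and Cox8a in striated muscle. Cox8b was 5.95 in animal 282 and 6.63 in animal 289, against 2.50 to 4.04 in the other 48 livers. Cox6a2 was 5.23 and 5.16 in these animals, against 2.95 to 3.78. Cox7a1 was 5.14 and 6.39, against 3.33 to 4.73. Neither animal stood apart for the widespread isoforms: Cox6a1 was 10.46 and 10.68 against 10.35 to 11.49, Cox7a2 8.18 and 8.34 against 7.78 to 8.56, and Cox8a 8.86 and 9.10 against 8.28 to 9.57.

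All 10 striated muscle markers lay higher in both animals than in any of the other 48 livers. Acta1, skeletal actin, was 10.68 and 8.97 against 3.64 to 6.08, and Ckm, muscle creatine kinase, 9.09 and 7.09 against 3.04 to 4.39. With the muscle score 1 of the 39 fitted members rose, Cox7a1 (r = 0.732), against 0.316% of all genes that rose and 0.018% that fell. Cox6a2 and Cox8b lay below the median level and were not fitted. The score was 5.46 in animal 282 and 3.62 in animal 289, against 0.59 in animal 24, the next highest. This r thus rests on the same 2 livers and is no separate result. No adipocyte marker of 8 lay above the other livers in both animals, and Ucp1, the uncoupling protein of brown fat, was 2.94 and 2.82 against 2.60 to 3.47. The order of the 2 animals differed between genes, since 9 of the 10 muscle markers read higher in animal 282 and Myh2 higher in animal 289, as did Cox7a1 and Cox8b. No member followed the adipocyte score (0.00902% of all genes rose and 0% fell, and 5 members rose by an unadjusted limma p under 0.05). Of the other tissue-restricted isoforms, Cox6b2, known from testis, was 4.83 in animal 64 against at most 3.26 elsewhere. Cox4i2, known from lung, had an SD of 0.16 around 2.87.

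**Figure D5:**
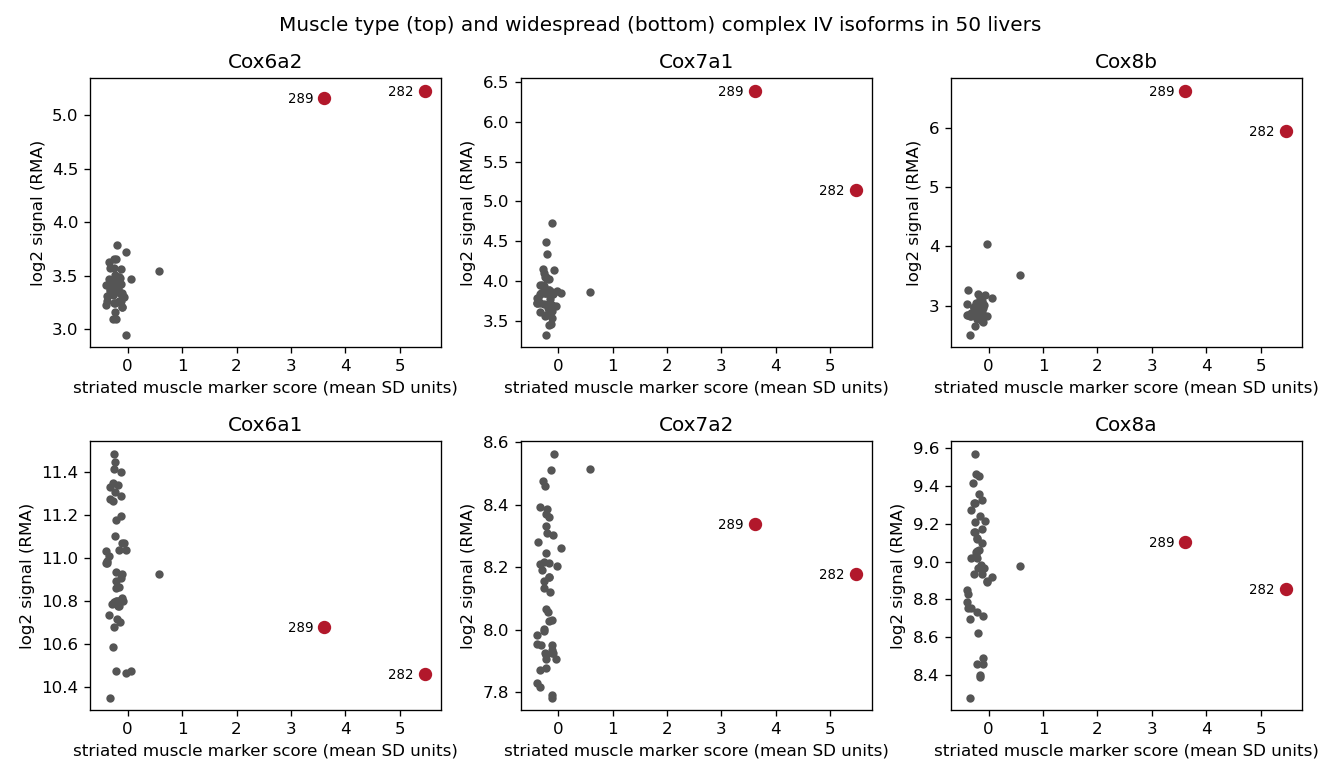
Log2 signal (y axis) of muscle type complex IV isoforms (top) and their widespread counterparts (bottom) against the striated muscle marker score, in SD units (x axis), 1 point per liver. Animals 282 and 289 (red) lie apart from the other 48 in the top row and within their range in the bottom row.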

How the data were processed

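Liver total RNA (100 ng per mouse, per the labels' protocols) was labelled and hybridised to 1 Affymetrix whole-transcript array per mouse. The deposited values are log2 signals, made by the authors with RMA; the submitters' processing notes name Affymetrix Expression Console 1.4.1, and the genome build is not given in the sources used here. RMA removes differences in total RNA between livers. The number of arrays limits the precision. The extraction protocol speaks of purified cells, but the tissue label is liver.

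Of 41345 probe sets 23521 carried 1 gene symbol, 1814 several and 16010 none. Every member matched RefSeq (GRCm38.p6), used for chromosomes only. Each of the 11090 genes at or above the median level was fitted on each predictor in SD units with limma 3.58.1 in R 4.3.3 (lmFit, eBayes with trend), Benjamini-Hochberg adjusted over all genes fitted. Single relations, 20 in all and chosen after values were seen, have two-sided permutation p from 100000 resamples. Correlations were made with scipy 1.17.1 and numpy 2.4.6 in Python 3.11.15. The fits were tested on simulated data: for animal number as predictor, with 11090 genes, 18 of 100 genes with a slope of 0.1 log2 per SD and 65 of 100 with 0.2 were recovered, and unchanged genes made up 5.68% of calls. The 5.68% belongs to those data only, and the share of false calls in the fits on livers was not tested. Members, lists and stretches were chosen with earlier results of the liver data known. The text may name all members, predictors, up to 6 genes of each fixed list nearest to or farthest from the complex I score, and the 5 genes closest to each reference; Cs, Esrra, Nrf1, the markers and the probe set remarks were added after values were seen. Fits on adipocyte and muscle scores and on ND1 were added later too.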

Additional observations from a re-analysis of the deposited data

How the results depend on the processing

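For 19 predictors the count of members called was recomputed under 132 alternatives, and 102 counts stayed within 1.5 times. Those for complex I (with and without the ribosomal covariate), the mitochondrial ribosome, Sod1 and Uqcrc1 did so throughout; the Esrra count was 0 in each, which says nothing on stability. The cause of the other moves was not tested. Without a level filter the count was 3 for the animal number, 2 for the stellate score, 3 for Gpx1, 2 for Prdx3 and 8 for Cox5a. By ranks over mice it was 8 for the animal number, 4 for the cytosolic ribosome (lower), 6 for the hepatocyte, 2 for the stellate and 7 for the macrophage score, 0 for Ppargc1a and 2 for Prdx3. Without animals 64, 84, 87 and 235 it was 2 for the cytosolic ribosome, stellate and macrophage scores, 0 for Ppargc1a, 5 for Sod2, 7 for Cat, 3 for Gpx1 and 11 for Sdha. With the stretch of animal numbers as a block it was 11 for the cytosolic ribosome, 13 for the stellate score, 2 for Gpx1, 27 for Sdha, 8 for Cox5a and 20 for Atp5b. With the mean of all probe sets it was 3 for the stellate score, and with arrays centred on their median it was 3 for the stellate score and 3 for Ppargc1a. With only members numbered at their own locus, an alternative chosen after seeing the data, it was 3 for the animal number, among 33 members. The fit on Prdx5 was not run, because no probe set of that gene alone was used here. No paired analysis was possible because the labels give 1 group. Signals near the background, as for the 10 members below the median level, set a limit on reading differences there.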
